A study of Mus musculus with 6 samples.

Results

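The network of the Myc oncoprotein, its partner Max and their antagonists was followed in cells sorted from mouse fetal liver as erythroid precursors. All 10 listed genes (Myc, Mycn, Mycl1, Max, Mxd1, Mxd3, Mxd4, Mxi1, Mnt and Mga) were found by name among the 19436 genes of the deposited table. RNA was sequenced from 3 wild type and 3 -77-/- libraries, all from strain C57BL/6 at embryonic stage E14.5. The sort kept cells that stained at a medium level for CD71, through which cells take up iron, and lacked the red cell antigen Ter119. The genotype -77-/- denotes loss from both alleles of an enhancer upstream of Gata2, and the label of the controls is wild type. The labels give no litter, sex, batch or number of embryos per library, so p-values measure the spread between these 3 libraries per genotype, which may be technical. Where single libraries are given, they follow in the order of replicates 1, 2 and 3. These numbers follow the order of the samples within each genotype, since the labels give none. Replicates of equal number are not matched between genotypes.

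Myc, Mycn and Mycl1 encode transcription factors that bind DNA only as dimers with Max and switch on genes of growth, ribosome production and metabolism. Mxd1, Mxd3, Mxd4, Mxi1 and Mnt compete for Max, bind the same E-box sequence and recruit Sin3 corepressors, and Mga joins Max in a variant Polycomb complex. In blood, Myc is high in dividing progenitors and is shut off as red cells mature, while Mxd genes are known for rising as cells leave the cycle.

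Between 16516338 and 20468899 reads per library were recovered from the table. Of the 12 erythroid markers, all 12 were lower in -77-/-, with summed normalized reads of 50851 to 53902 in wild type and 3579 to 8365 in -77-/-, and none at 0 in any library. Of 12 monocyte and macrophage markers all were higher, with sums of 1627 to 2956 in wild type and 33207 to 44382 in -77-/-. Granulocyte markers split, 4 higher and 5 lower of 12, with sums of 15155 to 26310 in wild type and 45321 to 49355 in -77-/-. Without Mpo, myeloperoxidase, the granulocyte sums were 6625 to 11561 and 8288 to 8598, which overlapped. Of 8 tested lymphoid markers 6 were higher, and of 7 tested stem and early progenitor markers 4 were higher and 1 was lower. Among all tested genes 16.9% were higher and 15.2% lower. In bulk RNA, fewer cells of a type and less RNA per cell cannot be told apart, and the part of these cell types in the results on the network was not tested.

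Of the 10 members, 2 were higher in -77-/- (Mycl1 and Mxd4), 3 were lower (Myc, Mxi1 and Mga) and 5 did not pass (Max, Mycn, Mxd1, Mxd3 and Mnt), by limma with Benjamini-Hochberg adjustment over all 15821 tested genes. Among all tested genes 32.2% passed, 16.9% higher and 15.2% lower, beside 50% of the members. All 10 members passed the filter on low values. The members' median log2 fold change was 0.01, against 0.10 for all tested genes. In 6 members, those that passed and Max, the libraries of the genotypes did not overlap, as in 46.5% of all tested genes.

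**Figure D1:**
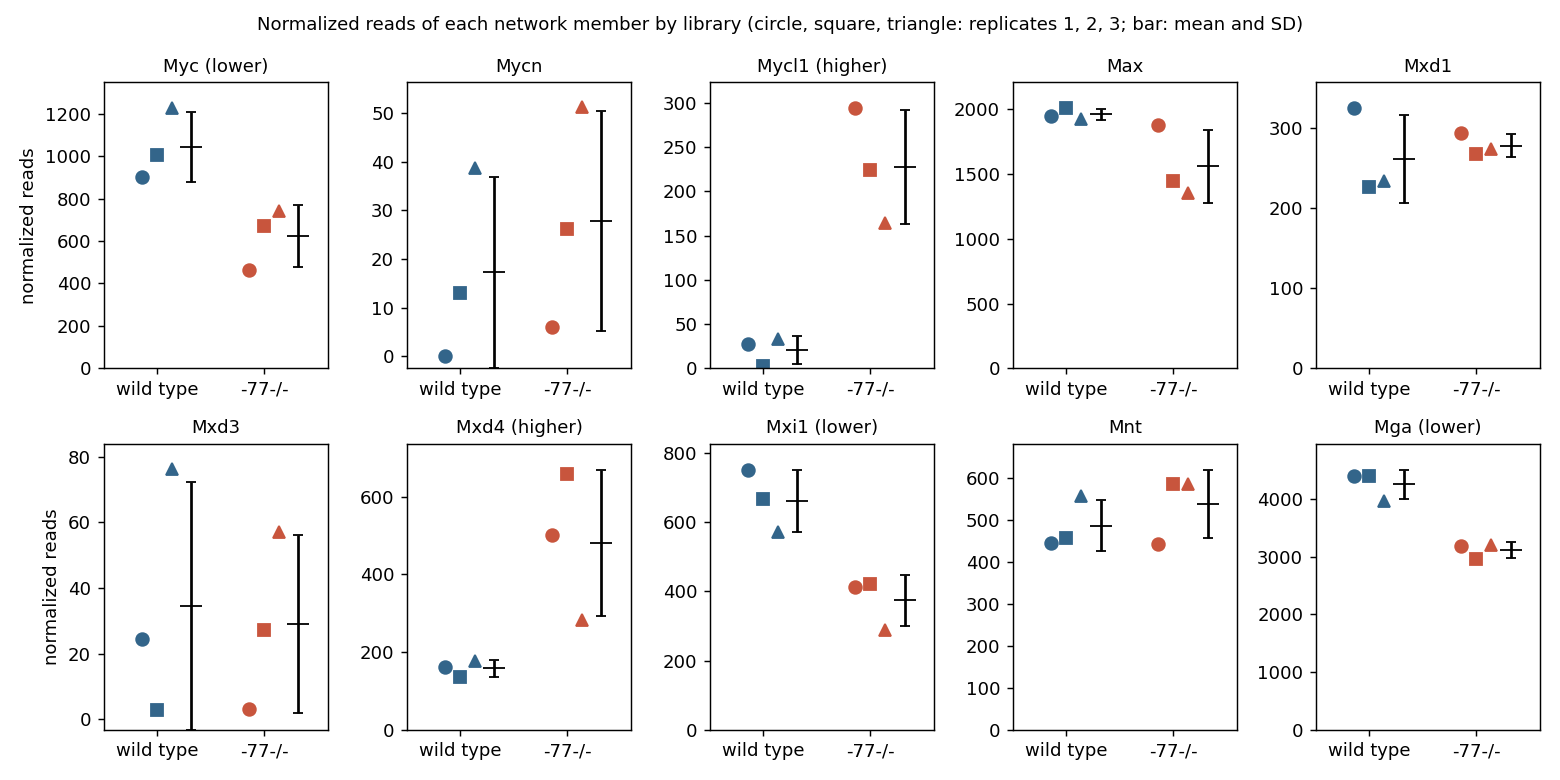
Normalized reads of each network member (vertical axes, linear, each panel with its own scale) in the 3 wild type and 3 -77-/- libraries, with the mean and SD beside the points. Myc, Mxi1 and Mga lie lower in all 3 -77-/- libraries, Mycl1 and Mxd4 lie higher in all 3, and the points of Mycn, Mxd1, Mxd3 and Mnt overlap.

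Among the activating genes, Myc went down and Mycl1 went up. Myc (ENSMUSG00000022346), the founding member, had 902, 1004 and 1226 normalized reads in wild type and 463, 670 and 741 in -77-/-. Every -77-/- library lay under every wild type library, and -77-/- replicate 1 was the lowest. Myc fell from 1044 ± 166 to 625 ± 145 (SD, n = 3 for all means), and the log2 fold change was -0.76 (limma SE 0.20, adjusted p = 0.0088). Without -77-/- replicate 1 the log2 fold change was -0.55 (limma adjusted p = 0.0426), and Myc did not pass with limma run without trend or robust fitting (adjusted p = 0.0866).

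Mycl1 (ENSMUSG00000028654, now named Mycl), which encodes L-Myc and is known for its expression in dendritic cells, had 27.2, 2.99 and 33.0 normalized reads in wild type. In -77-/- it had 294, 225 and 165. All 3 -77-/- libraries stood far above the wild type libraries, of which replicate 2 held 3 reads. The mean rose from 21.1 ± 15.9 to 228 ± 64.6, 10.8-fold, on 61 and 713 reads in all. The log2 fold change was 3.83 (limma SE 0.76, adjusted p = 0.0012), and 2.84 without wild type replicate 2, the library with the fewest reads of the gene.

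Mycn (ENSMUSG00000037169), known for its role in stem and early progenitor cells, was low in both genotypes. It had 0, 13.0 and 38.7 normalized reads in wild type and 6.10, 26.2 and 51.2 in -77-/-. The genotypes overlapped, with 47 and 93 reads in all, and no difference was detectable at this depth. The log2 fold change was 1.40 with a 95% interval of -1.60 to 4.39 (limma adjusted p = 0.477).

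Divided by the exon length of each gene, so that genes can be set side by side, Myc held 97.2% ± 1.75 of the reads per kb of the 3 Myc genes in wild type and 76.1% ± 6.96 in -77-/-. Mycl1 held 2.10%, 0.209% and 1.83% in wild type and 30.9%, 18.7% and 12.9% in -77-/-. Myc thus had the larger share in every library of both genotypes. The summed level of the 3 genes was 396 ± 69.8 reads per kb in wild type and 299 ± 44.4 in -77-/-, with libraries ranging from 339 to 474 and from 249 to 334, which did not overlap.

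Max (ENSMUSG00000059436), the partner that all the other members need or compete for, had 1949, 2009 and 1926 normalized reads in wild type and 1883, 1446 and 1357 in -77-/-. The libraries did not overlap, but -77-/- replicate 1 lay close to wild type. The means were 1961 ± 42.7 and 1562 ± 281, a log2 fold change of -0.34 (SE 0.14, 95% interval -0.64 to -0.04) that did not pass (limma adjusted p = 0.0758). It passed without -77-/- replicate 1, at -0.48 (limma adjusted p = 0.0167). Of all members Max had the highest level per kb, 1002 ± 21.8 in wild type and 798 ± 144 in -77-/-.

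Of the 4 repressors of the Mxd family Mxd4 rose, Mxi1 fell, and Mxd1 and Mxd3 did not pass. Mxd4 (ENSMUSG00000037235) had 162, 135 and 178 normalized reads in wild type and 501, 659 and 283 in -77-/-. Each -77-/- library was above each wild type library, and the spread among the -77-/- libraries was wide, with replicate 3 lowest. Mxd4 rose from 158 ± 21.8 to 481 ± 189, 3.04-fold, and the log2 fold change was 1.52 (limma SE 0.32, adjusted p = 0.0016).

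Mxi1 (ENSMUSG00000025025), also known as Mxd2, had 751, 667 and 571 normalized reads in wild type and 412, 422 and 289 in -77-/-. The -77-/- libraries all lay under the wild type ones. Mxi1 fell from 663 ± 89.9 to 374 ± 74.2, and the log2 fold change was -0.83 (limma SE 0.22, adjusted p = 0.0081). Without -77-/- replicate 3, the lowest library, the log2 fold change was -0.66 and Mxi1 no longer passed (limma adjusted p = 0.0523; 0.00558 to 0.0523 in all 16 alternatives).

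Mxd1 (ENSMUSG00000001156), the first of the family to be described and a gene of myeloid maturation, had 325, 227 and 234 normalized reads in wild type and 294, 267 and 273 in -77-/-. The -77-/- values lay within the wild type range. The log2 fold change was 0.11 with a 95% interval of -0.45 to 0.67 (limma adjusted p = 0.787). Mxd3 (ENSMUSG00000021485), which is known from dividing cells, was low and uneven, with 24.4, 2.99 and 76.4 normalized reads in wild type and 3.05, 27.2 and 57.2 in -77-/-. At 96 and 98 reads in all, its log2 fold change of -0.08 had a 95% interval of -2.81 to 2.65 (limma adjusted p = 0.969).

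Mnt (ENSMUSG00000000282), the broadly expressed antagonist of Myc, had 447, 457 and 557 normalized reads in wild type and 444, 586 and 586 in -77-/-. The genotypes overlapped, with a log2 fold change of 0.14 (95% interval -0.30 to 0.58, limma adjusted p = 0.629). Mga (ENSMUSG00000033943), a very large protein with a second DNA binding domain of the T-box type, had 4406, 4395 and 3965 normalized reads in wild type and 3183, 2960 and 3209 in -77-/-. The replicates were close and the genotypes apart. Mga fell from 4255 ± 252 to 3117 ± 137, and the log2 fold change was -0.45 (limma SE 0.11, adjusted p = 0.0040). Mga did not pass with limma run without trend or robust fitting (adjusted p = 0.0715).

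**Figure D2:**
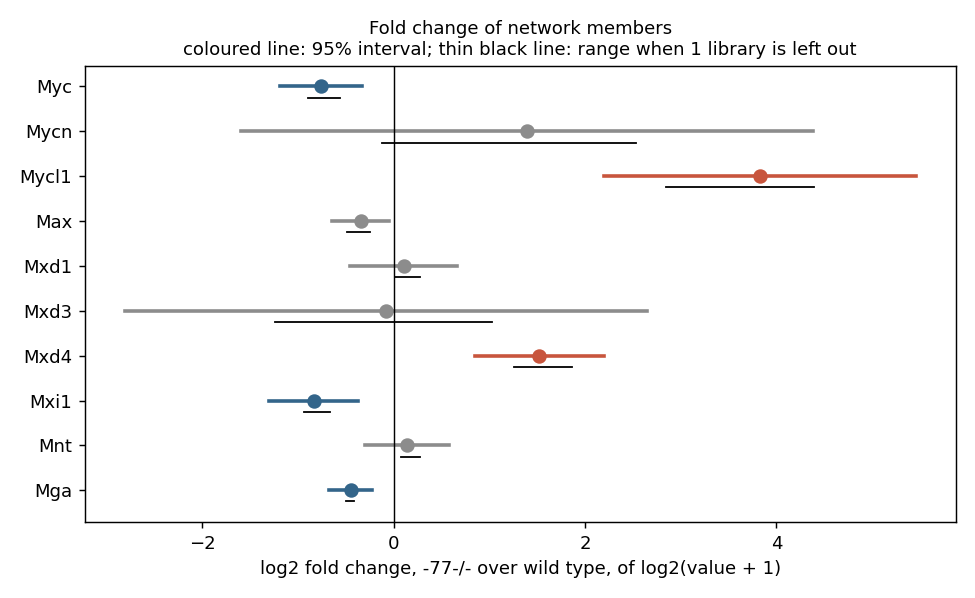
Log2 fold change of each member, -77-/- over wild type (horizontal axis), with its 95% interval from limma (coloured line) and the range when 1 library is left out (thin black line). Orange marks genes higher in -77-/-, blue those lower and grey those that did not pass, and the intervals of Mycn and Mxd3, the members with the fewest reads, span from -1.60 to 4.39 and from -2.81 to 2.65.

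In the authors' deposited table the same 5 members were below an adjusted p of 0.05. Log2 fold changes in the authors' deposited table were -0.74 for Myc, 3.44 for Mycl1, -0.83 for Mxi1 and -0.45 for Mga. For Max the authors' deposited table gave -0.33 with an adjusted p of 0.109.

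The make-up of the repressor group differed between genotypes more than its total. Per kb of exon, Mxi1 held 33.2%, 35.1% and 23.8% of the reads of Mxd1, Mxd3, Mxd4, Mxi1 and Mnt in wild type. It held between 12.5% and 17.5% in -77-/-. Mxd4 held 12.4% ± 0.277 in wild type and 32.1% ± 9.59 in -77-/-, with 36.6%, 38.7% and 21.1% in the 3 libraries. Mnt held 32.4% ± 3.33 and 31.2% ± 5.07, and Mxd1 held 17.1% ± 3.29 and 15.9% ± 2.54. The summed level of the group was 328 ± 38.9 reads per kb in wild type and 379 ± 51.7 in -77-/-, and the genotypes overlapped.

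**Figure D3:**
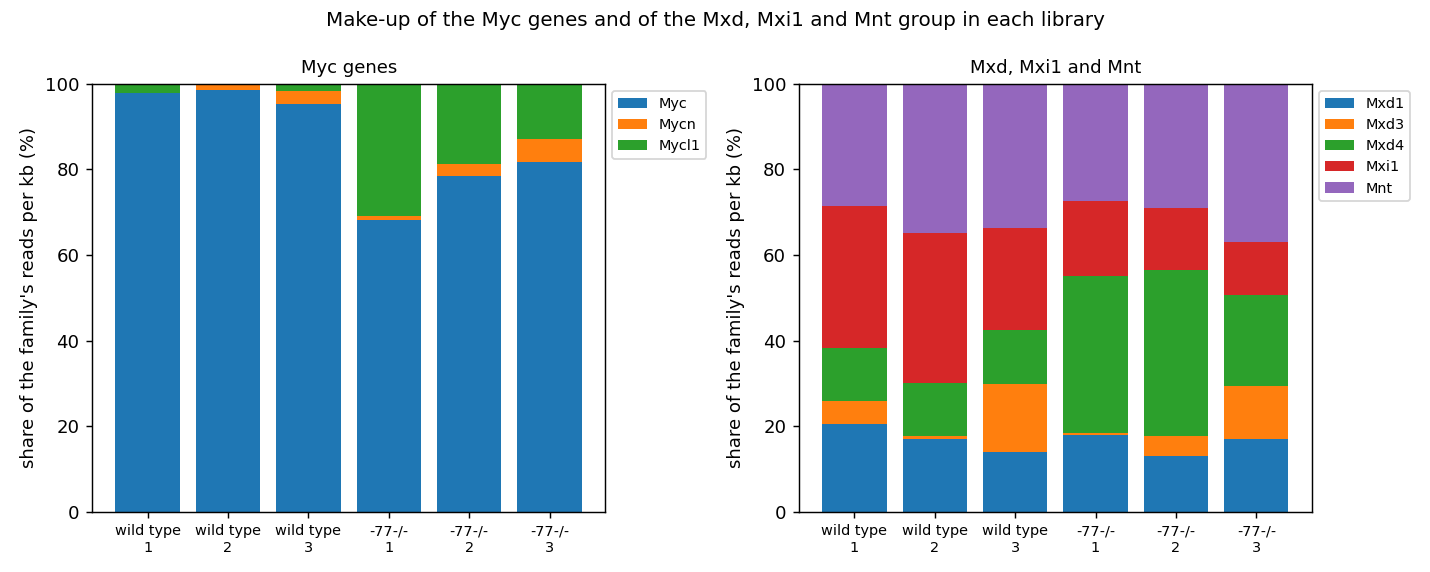
Share of reads per kb of exon (vertical axis, percent) that each gene held within the Myc genes (left) and within Mxd1, Mxd3, Mxd4, Mxi1 and Mnt (right), 1 bar per library. Mycl1 took 12.9% to 30.9% of the Myc genes in -77-/- and at most 2.10% in wild type, and Mxd4 took 21.1% to 38.7% of the repressor group in -77-/- and at most 12.7% in wild type.

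In wild type the order of levels per kb was Max, Myc (384 ± 61.1), Mga (305 ± 18.1), Mnt (106 ± 13.3), Mxi1 (99.6 ± 13.5), Mxd1 (56.0 ± 11.7), Mxd4 (40.8 ± 5.62), Mxd3 (26.1 ± 28.4), Mycn (6.15 ± 7.03) and Mycl1 (5.52 ± 4.18). In -77-/- it was Max, Myc (230 ± 53.2), Mga (224 ± 9.82), Mxd4 (124 ± 48.6), Mnt (117 ± 17.8), Mycl1 (59.7 ± 16.9), Mxd1 (59.5 ± 2.98), Mxi1 (56.2 ± 11.2), Mxd3 (22.0 ± 20.4) and Mycn (9.94 ± 8.06). Neighbours in this order whose means lie within their SDs, such as Mnt and Mxi1 in wild type or Mycl1, Mxd1 and Mxi1 in -77-/-, were not separated. With the length of the longest coding transcript in place of all exons of coding transcripts, Mxi1 stood at 132 reads per kb in wild type, above Mnt. In -77-/- this length put Mxi1, at 74.3, above Mycl1, at 65.0. By the means over all exons Mxd4 stood below Mnt, Mxi1 and Mxd1 in wild type and next after Mga in -77-/-, and Mycl1 was last in wild type. Mxd4 and Mnt in -77-/-, and Mycl1 and Mycn in wild type, were likewise not separated. In -77-/- replicate 3 Mxd4 stood at 73.0 reads per kb and Mnt at 128.

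Ratios between members within a library do not depend on how libraries are scaled. They use normalized reads that were not divided by exon length, so they compare the genotypes and not the levels of different members. Mnt over Myc was 0.495, 0.455 and 0.454 in wild type and 0.960, 0.875 and 0.790 in -77-/-, so this ratio was narrow within each genotype and apart between them. Mxd4 over Mxi1 was 0.202 to 0.311 in wild type and 0.982 to 1.56 in -77-/-. Mxd4 over Myc was 0.134 to 0.180 in wild type and 0.382 to 1.08 in -77-/-, with -77-/- replicate 3 the lowest of the latter. Mxi1 over Myc overlapped between the genotypes, at 0.466 to 0.832 and 0.389 to 0.890, as did Myc over Max, at 0.463 to 0.637 and 0.246 to 0.546. These ratios describe the libraries and carry no test.

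**Figure D4:**
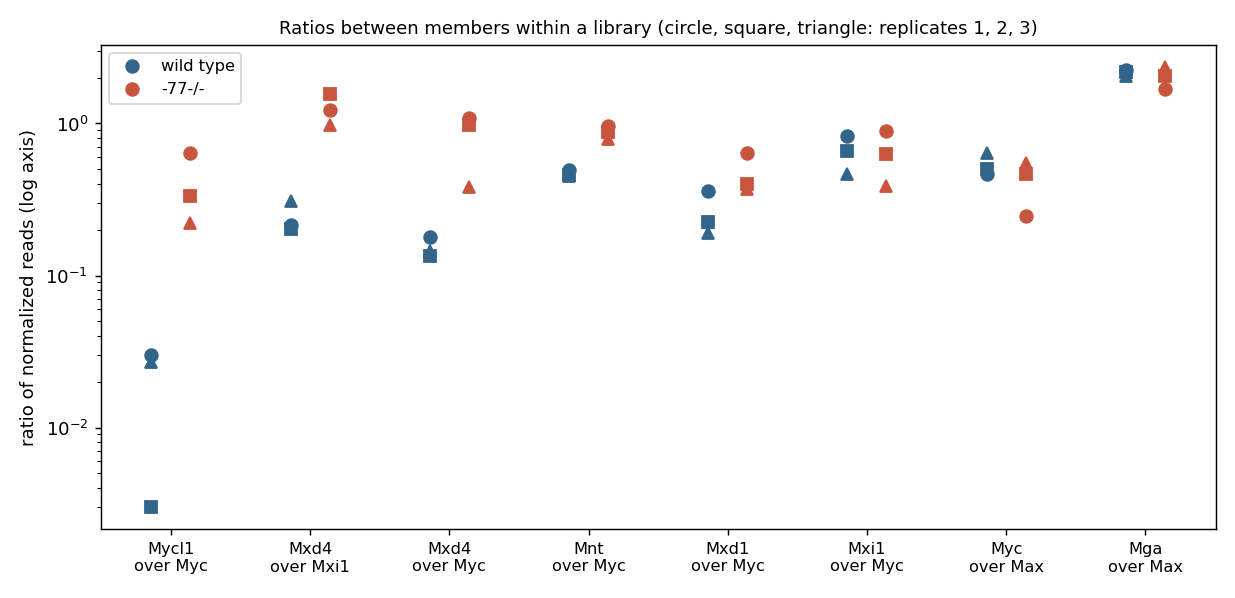
Ratio of normalized reads, not divided by exon length, between pairs of members within each library (vertical axis, log scale), with wild type in blue and -77-/- in orange. Mycl1 over Myc, Mxd4 over Mxi1, Mxd4 over Myc, Mnt over Myc and Mxd1 over Myc lie apart between genotypes, and Mxi1 over Myc, Myc over Max and Mga over Max overlap.

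Dimers of Max bind the E-box CACGTG, and GATA factors bind motifs such as AGATAA and TGATAA, so the 250 bases before the start sites of the members were searched for these letters on both strands. RefSeq promoters of build GRCm38.p6 were matched for 9 of the 10 members, all but Myc, with 11 start sites, 3 of them for Mxi1. CACGTG was found before Mxd4 and Mnt, which is 18.2% of these 11 windows, against 6.02% of all 32851 promoters of the table. AGATAA and TGATAA were found before none of the 11, against 9.99% and 7.94% of all promoters. The windows of Mxd4 and Mycl1, the members that rose, and of Mnt are shown 5′ to 3′ on the strand of the gene, with CACGTG in capitals. They lie at chr5:34187711-34187960 on the minus strand for Mxd4, at chr4:122995681-122995930 on the plus strand for Mycl1 and at chr11:74830674-74830923 on the plus strand for Mnt.
Mxd4: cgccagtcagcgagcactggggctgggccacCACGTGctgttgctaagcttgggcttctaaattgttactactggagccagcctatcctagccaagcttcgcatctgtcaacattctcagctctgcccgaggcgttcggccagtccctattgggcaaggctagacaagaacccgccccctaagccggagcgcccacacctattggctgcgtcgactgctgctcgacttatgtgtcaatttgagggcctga
Mycl1: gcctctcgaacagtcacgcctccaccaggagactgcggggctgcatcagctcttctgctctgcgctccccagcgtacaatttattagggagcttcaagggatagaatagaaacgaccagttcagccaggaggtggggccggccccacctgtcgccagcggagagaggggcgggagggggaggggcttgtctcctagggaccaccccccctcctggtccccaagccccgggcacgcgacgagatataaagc
Mnt: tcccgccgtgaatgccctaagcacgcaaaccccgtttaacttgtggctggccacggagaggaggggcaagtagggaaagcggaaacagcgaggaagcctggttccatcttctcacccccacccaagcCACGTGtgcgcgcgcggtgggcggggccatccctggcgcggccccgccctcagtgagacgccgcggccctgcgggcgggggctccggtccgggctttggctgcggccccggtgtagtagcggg
The match begins 219 bases before the start of Mxd4, whose RNA rose, and 123 bases before that of Mnt, whose RNA did not pass the test, and the window of Mycl1, with the largest rise, holds none. A match describes letters and not binding.

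Of 167 other genes of the pathway in 10 lists, 29 were higher in -77-/-, 66 were lower and the others did not pass. These were 17.4% higher and 39.5% lower, beside 16.9% and 15.2% of all tested genes, with a median log2 fold change of -0.22 against 0.10 for all tested genes. The lists were set up from textbook roles and share some genes. The plot of fold changes by list shows where they differ.

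**Figure D5:**
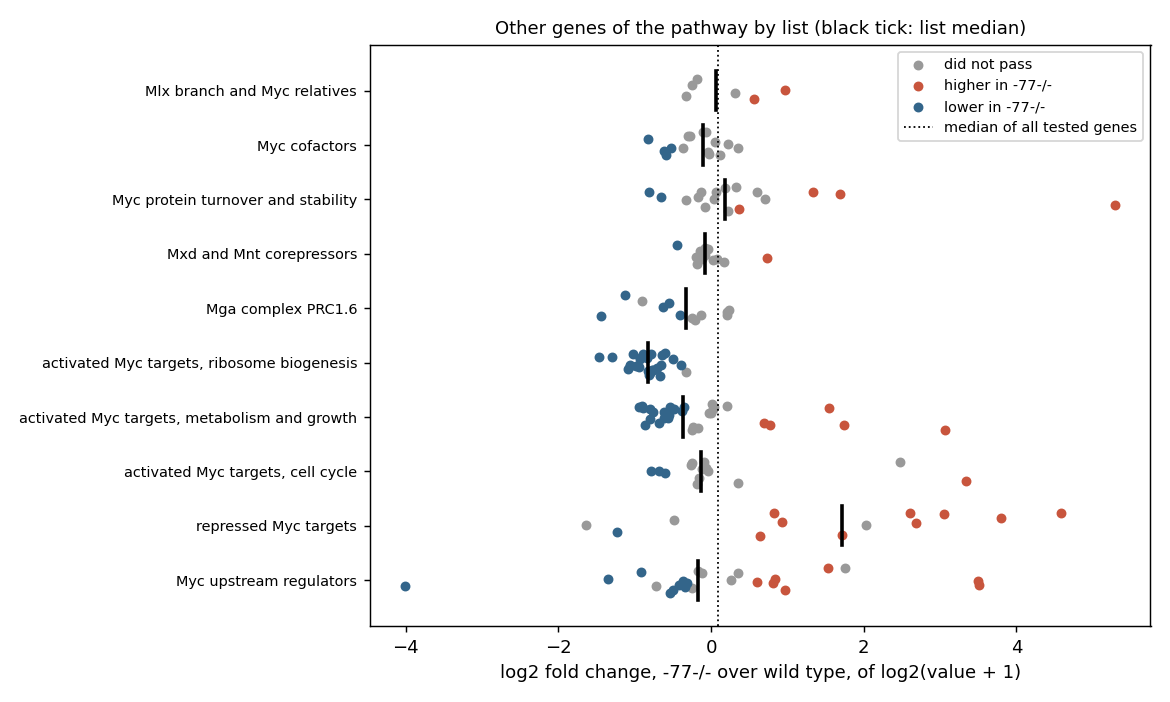
Log2 fold change of each gene, -77-/- over wild type (horizontal axis), in 10 lists of Myc relatives, cofactors, regulators and targets. Orange and blue points passed the test as higher and lower, black ticks are list medians, and the dotted line is the median of all tested genes. In the ribosome biogenesis list 25 of 26 genes are lower, where 15.2% of all tested genes are, and the list of repressed targets has a median of 1.71.

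Genes of ribosome biogenesis, the best known targets that Myc activates, were lower in 25 of 26 cases and none was higher. This was 96.2%, beside 15.2% of all tested genes, and the median log2 fold change was -0.82. Gnl3, the nucleolar GTPase nucleostemin, fell from 3697 ± 115 to 1347 ± 233 normalized reads (log2 fold change -1.47, limma adjusted p = 8.01e-07). Rrp9, a protein of the U3 small nucleolar particle, fell from 719 ± 252 to 281 ± 11.6, and Polr1b, a large subunit of RNA polymerase I, from 1979 ± 54.7 to 939 ± 175. The helicase Ddx21 fell from 13569 ± 1491 to 6569 ± 1503. Bop1 did not pass, with 1853 ± 346 and 1505 ± 399 (limma adjusted p = 0.254). The count of lower genes was 24 or 25 when any 1 library was left out, and 19 with limma run without trend or robust fitting. Proliferation markers, measured beside it, were lower in 3 of 10 cases and higher in none, 30% lower beside 15.2% of all tested genes. Their sums were 80827 to 91987 in wild type and 70094 to 74226 in -77-/-, and their part in the ribosome biogenesis result was not tested.

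Metabolic and growth targets were mixed, with 16 lower, 5 higher and 9 not passing of 30 and a median of -0.37. Thus 70% passed, beside 32.2% of all tested genes. Ppat, the first enzyme of purine synthesis, fell from 4294 ± 435 to 2247 ± 438, and Cad, which starts pyrimidine synthesis, from 6372 ± 136 to 3514 ± 544. The mitochondrial chaperonins Hspd1 and Hspe1 had log2 fold changes of -0.91 and -0.89. Pkm2, pyruvate kinase, rose from 4673 ± 444 to 15592 ± 899 (log2 fold change 1.74, limma adjusted p = 7.78e-09), and Hk2, hexokinase, from 1027 ± 38.5 to 3000.0 ± 167. Shmt1 rose by 0.78 on the log2 scale. Nme2 rose by 3.07 on the log2 scale while Nme1, its neighbour and close copy, had -0.68, and how reads were split between these copies is not given in the sources used here. With limma run without trend or robust fitting, 6 genes of this list were lower.

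Of 14 cell cycle targets, 3 were lower, 1 was higher and 10 did not pass, so that 28.6% passed beside 32.2% of all tested genes. Cdc25a, a phosphatase that activates cyclin-dependent kinases, fell from 2395 ± 207 to 1576 ± 135, and the kinase subunits Cks2 and Cks1b had log2 fold changes of -0.78 and -0.68. Id2, an inhibitor of E proteins, rose from 105 ± 10.6 to 1074 ± 102. Cdk4 and Ccnd2, kinase and cyclin of the early cycle, had -0.19 and -0.04 and did not pass (limma adjusted p = 0.259 and 0.848).

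Genes that Myc is known to repress rose in 9 of 13 cases and fell in 1, with a median of 1.71. In all 76.9% passed, beside 32.2% of all tested genes. Ndrg1 rose from 13.2 ± 11.6 to 226 ± 45.7, Cebpa, a myeloid transcription factor, from 93.4 ± 21.0 to 1289 ± 120, Cebpd from 25.8 ± 17.9 to 135 ± 25.1 and Ccnd1, cyclin D1, from 269 ± 40.8 to 2252 ± 463. Cebpa and Cebpd are also genes of the myeloid lineage. In the same libraries all 12 monocyte and macrophage markers rose, while granulocyte markers split, 4 higher and 5 lower of 12. The part of these lineages in the count was not tested. Gadd45a, a stress gene, fell from 526 ± 94.1 to 222 ± 38.2. The count of higher genes was 5 without -77-/- replicate 2, 6 without -77-/- replicate 1 or wild type replicate 2, and 5 with limma run without trend or robust fitting.

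Of 15 Myc cofactors 4 were lower and none was higher. These were 26.7%, where 15.2% of all tested genes were lower. Wdr5, which tethers Myc to chromatin, fell from 2667 ± 151 to 1504 ± 125. Ruvbl1, Actl6a and Hcfc1 had log2 fold changes of -0.62, -0.59 and -0.53. Of 17 genes of Myc protein turnover 4 were higher and 2 lower, 35.3% in all beside 32.2% of all tested genes. The kinase Pim1 rose from 581 ± 139 to 1840 ± 137 and the deubiquitinase Usp28 from 202 ± 70.3 to 496 ± 38.8, while the deubiquitinases Usp36 and Usp7 had log2 fold changes of -0.81 and -0.66. Ppp2r5a rose by 0.37 on the log2 scale, a call that held in 9 of 16 alternatives (limma adjusted p = 0.0435, between 0.0226 and 0.227 in the alternatives). Fbxw7, the ligase subunit that targets Myc for destruction, had -0.17 and did not pass (limma adjusted p = 0.556).

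Of 13 corepressor genes that serve Mxd and Mnt, 11 did not pass, so that 15.4% passed beside 32.2% of all tested genes. Sin3a and Sin3b had log2 fold changes of -0.04 and -0.13, and Hdac2, a histone deacetylase of the Sin3 complex, had -0.45 and passed as lower. In the Polycomb complex that holds Mga, 5 of 12 genes were lower and none was higher, with a median of -0.33. These were 41.7%, where 15.2% of all tested genes were lower. Pcgf6, its defining ring finger subunit, fell from 778 ± 131 to 288 ± 73.1 and E2f6, which binds DNA for the complex, from 1395 ± 139 to 639.5 ± 71.4. L3mbtl2 and Rybp had log2 fold changes of -0.63 and -0.55. Of 6 Mlx branch genes and Myc relatives 2 were higher and none was lower. These were 33.3%, where 16.9% of all tested genes were higher. Mlxip, a glucose sensing partner of Mlx, rose from 1015 ± 198 to 1971 ± 265 and Mycbp2 rose by 0.57 on the log2 scale. Mlx had -0.26 and did not pass (limma adjusted p = 0.406).

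Among 23 genes known to act on Myc expression, 9 were lower and 7 higher, 69.6% in all beside 32.2% of all tested genes. Notch1, a receptor that drives Myc in lymphoid progenitors, rose from 167 ± 19.7 to 1919 ± 240, and Prdm1, Tcf7l2 and Tcf4 rose by 3.49, 1.53 and 0.97 on the log2 scale. Gata1, which represses Myc as red cells mature, fell from 3012 ± 302 to 244 ± 225, a call that ended without -77-/- replicate 3 (limma adjusted p = 0.0585). Stat5a, Myb and Stat5b had log2 fold changes of -1.36, -0.91 and -0.54. Pvt1, the noncoding gene next to Myc, had 411 ± 89.1 and 249 ± 50.5 normalized reads, with a log2 fold change of -0.72 that did not pass (limma adjusted p = 0.0516).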

How the data were processed

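Per the labels' protocols, the NuGEN Ovation kit for single cells was used on 10 ng RNA per library. Per the submitters' processing notes, the tools were STAR 2.5, Bowtie, DESeq2 and RSEM 1.2.31, on build mm9. Which tool did what, the annotation and the strand setting are not given in the sources used here. Each of the 6 deposited library columns holds a normalized signal, gene counts that the authors divided by 1 size factor per library (0.878 to 1.17). All values were whole multiples of 1 step per library within 0.01 of a read, so reads could be recovered. The authors also deposited log2 fold changes, and p-values and standard errors entered here as a score, since 8 shifted rows of small RNA genes, left out, hold other quantities there.

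limma 3.58.1 (R 4.3.3, trend and robust) was run on log2(value + 1) for 15821 genes with a mean of at least 10 in the higher genotype, and a gene passed at 0.05 after Benjamini-Hochberg adjustment. Fold changes are on that scale, and those of low genes depend on the pseudocount (Mycl1 3.41 to 3.98 and Mycn 0.77 to 2.46 with pseudocounts of 5 and 0.1). The fit was tested on simulated data. edgeR 4.0.16, DESeq2 1.42.0 and limma-voom on recovered reads were alternatives. A total of 3 reads, 2.56 to 3.42 in normalized value, was noted as a floor, which covers counting error only. It entered no fit or filter, and values at or under it were kept. Levels per kb used all exons of protein-coding transcripts of GENCODE M21 (GRCm38), which may differ from the authors' annotation. Exons of Mxd3, Mxd4 and Mxi1 overlap Prelid1, Gm42846 and Gm10197 on the other strand by 4.43%, 6.06% and 2.84% of their length, and reads there cannot be told apart without strand. Members and lists were chosen with earlier results of these data known. Every member is named, with up to 4 genes per list and direction that passed, by size of change, at a mean of at least 100 in the higher genotype, and a few others chosen after their values were seen (Bop1, Nme1, Cdk4, Ccnd2, Fbxw7, Sin3a, Sin3b, Mlx, Pvt1). Of 172 entries of the other lists, 3 (Mycs, Myct1 and Cdkn2b) were not matched. Of the marker lists, megakaryocyte markers had 1 higher and 2 lower of 6 tested, and none passed among 3 mast cell and basophil and 4 hepatocyte markers. A comparison of member proteins was planned and not run. The values of 1 gene that the naming rule selects are not reported here.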

Additional observations from a re-analysis of the deposited data

How the results depend on the processing

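With 3 libraries per genotype, members of under 100 reads per genotype (Mycn, Mxd3) could not be resolved. The 5 calls among the members were 5 under both other pseudocounts, both other filters, TMM and upper quartile scaling, edgeR, DESeq2 and limma-voom, and 4 to 6 when 1 library was left out. limma without trend or robust fitting, which uses 1 prior variance for all genes, called 2 members, Mycl1 and Mxd4, and 61 of the other pathway genes against 95. Myc, Mga and Mxi1 then had limma adjusted p = 0.0866, 0.0715 and 0.0521. That fit lowered the count of all genes lower in -77-/- from 2410 to 1430, of lower ribosome biogenesis genes from 25 to 19, of lower metabolic targets from 16 to 6, of lower regulators of Myc from 9 to 4, of lower Mga complex genes from 5 to 3 and of lower cofactors from 4 to 2. Other pathway genes called numbered 88 to 96 when 1 library was left out, and all genes called 3915 to 5108 against 5091. Of 158 member values under alternatives, 148 kept their direction and their side of the threshold and 5 changed sign. These were Mycn, from -0.12 to 2.53 with 1 library left out and at -0.12 without wild type replicate 1, and Mxd3, from -1.24 to 1.03 with 1 library left out, at 0.059 with limma-voom and at 0.10, 0.90 and 1.03 without wild type replicates 1 and 3 and -77-/- replicate 1; none of them passed the test, and the cause was not tested. No paired analysis was possible because the labels give no replicate numbers shared by the genotypes.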

Other observations

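Over the 6 libraries, the tested genes whose log2 values were most like those of Myc were Fbxl6, Pard6b, Epn1, Kdm1a and 1700040I03Rik, with Pearson correlations of 0.991 to 0.998. A total of 509 tested genes had a value over 0.9, and the libraries fall into 2 genotypes, so these values are a description. Kdm1a, the histone demethylase LSD1, had 1207 ± 66.3 normalized reads in wild type and 859.5 ± 134 in -77-/- (log2 fold change -0.50, limma adjusted p = 0.0247). Epn1 had 1936 ± 168 and 1426 ± 147. Fbxl6 had 180.1, 205 and 256 normalized reads in wild type and 84.4, 136 and 143 in -77-/- and did not pass the test (limma adjusted p = 0.0838).

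CACGTG was also counted before the start sites of the 10 other lists, against 6.02% of all promoters. It was found in 27.8% of 36 windows of the metabolic and growth targets, 25.0% of 8 of the Mlx branch and Myc relatives and 23.1% of 13 of the Mga complex. The share was 14.3% of 14 windows for repressed targets, 13.3% of 15 for cell cycle targets, 10.5% of 19 for turnover genes and 9.09% of 11 for corepressors. It was 6.25% of 16 for cofactors, 4.35% of 23 for ribosome biogenesis and 3.45% of 29 for upstream regulators.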
